A study of Rattus norvegicus with 6 samples.

Results

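Complement is a set of plasma and cell-surface proteins that marks microbes, immune complexes and damaged cells for removal. The classical pathway starts when C1q binds antibody or a damaged surface and switches on the proteases C1r and C1s, and the lectin pathway starts when sugar-binding proteins switch on the MASP proteases. The alternative pathway amplifies both through factor B and C3, and all 3 lead to the terminal components that build a pore in membranes. The liver secretes most plasma complement, while macrophages make C1q and many tissue cells make C1r, C1s, factor B and the C1 inhibitor. Regulators such as the C1 inhibitor, Cd55 and Cd59 restrain the cascade on the body's own cells.

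The complement genes described here were 31 components, regulators and receptors, taken as the rows whose name matched exactly among 27321 features, and 24 of the 31 had such a row. C2, C3, C4a, C7, Cfi, Cd46 and C5ar1 had no row of that exact name and were not analysed here. RNA-seq had been done on the IM tip, the terminal part of the renal inner medulla, from male Sprague-Dawley rats, 3 months old and weighing about 150 g. The 3 control rats received vehicle by tail vein and the 3 STZ rats received streptozotocin, a toxin of the insulin-producing beta cells, at 62.5 mg/kg. Diabetes was checked by blood glucose, and tissue was taken 15 days after the injection. Values are normalized counts, meaning whole reads divided by 1 size factor per library, and they are not divided by gene length, so they are compared between libraries and not between genes.

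Reads on features ran from 3412311 to 5575171 per library, and 1 read was worth 0.763 to 1.11 normalized counts. A value of 3 reads or fewer was taken as the floor, which covers counting error only because the cDNA was amplified by PCR without molecular identifiers. The 95th percentile of 835 olfactory receptor features, used as a measure of background, ran from 1.86 to 10.02 normalized counts. Lane 3 held the control libraries and lanes 6, 7 and 8 held 1 STZ library each, which leaves condition and lane confounded: their effects cannot be told apart. Collecting duct markers, which define the main epithelium of this tissue, summed to 19014, 17956 and 11043 normalized counts in control and 35710, 18637 and 23715 in STZ replicates 1, 2 and 3. All 8 with a row were tested, and 0 were called by limma, but all 8 log2 fold changes were above 0, 4 had an unadjusted p under 0.05 and 3 had groups that did not overlap. In whole tissue, fewer cells of a type and less RNA per cell cannot be told apart.

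No complement member passed the test between STZ and control. Members whose mean reached 5 normalized counts were tested by limma within the fit over all 13486 such features, and 14 of the 24 did so. At an adjusted p under 0.05, 0 of 14 were higher and 0 of 14 lower in STZ, against 1.17% of all features tested called higher, 0.927% called lower and 2.1% called in either direction. At an unadjusted p under 0.05 the count was also 0 of 14, where 14.7% of all features tested lay, and edgeR and DESeq2 called 0 each. DESeq2 gave no adjusted p for C1qa, Cfp, C8b, C4bpa, Cd55 and C3ar1. The control and STZ values overlapped in all 14, whereas 20.3% of all features tested had groups that did not overlap. The log2 fold changes ran from −0.71 for Cd55 to 0.50 for C1s, with 4 above 0, 10 below 0 and a median of −0.19, beside 0.0056 over all features tested. The 95% interval lay within 1 log2 unit either side of 0 for 4 members, C1r, Masp2, Cfb and C8g. For the other 10 it reached beyond 1 log2 unit on at least 1 side.

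**Figure D1:**
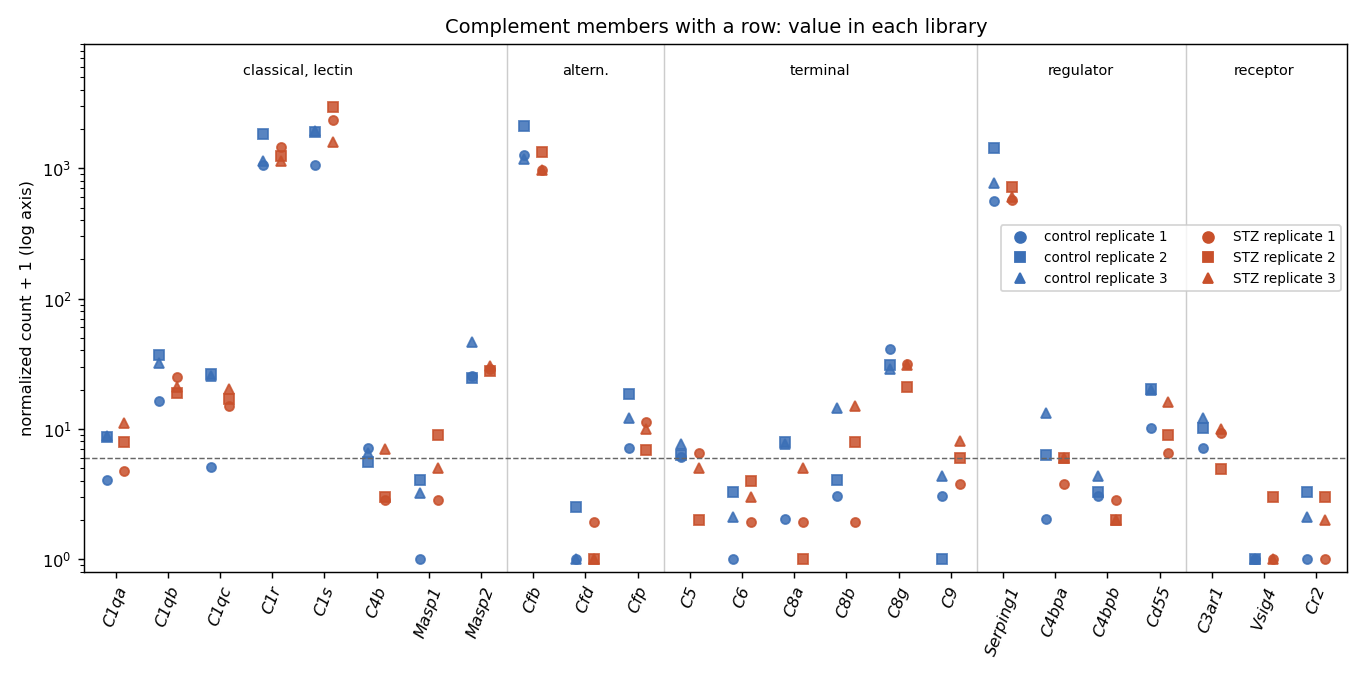
Normalized count plus 1 (log axis) of the 24 complement members with a row, in each of the 3 control (blue) and 3 STZ (orange) libraries, with members ordered by role and the marker shape giving the replicate number. The dashed line is the minimum mean of 5 for testing. C1r, C1s, Cfb and Serping1 hold the most reads in every library (values are not divided by gene length), and in every tested member the groups overlap.

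The depth behind the members was very uneven. C1r, C1s, Cfb and Serping1 had at least 549 reads in every library, while the next member had at most 47. Of the 24 members, 11 lay above 3 reads in all 6 libraries and 9 lay above the olfactory background in all 6. These 9 were C1qb, C1qc, C1r, C1s, Masp2, Cfb, C8g, Serping1 and Cd55. Another 5 members, Cfd, C6, C4bpb, Vsig4 and Cr2, never exceeded 3 reads. The 10 members under the mean of 5 had means of at most 4.62 and no single value above 7.91 normalized counts.

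Among the classical pathway members, the serine proteases of the C1 complex carried the most reads. C1s cleaves C4 and C2, and its locus lies on rn4 at chr4:160736132-160748150. For replicates 1, 2 and 3, in the order used for all values that follow, C1s had 1065, 1903 and 1916 normalized counts in control and 2336, 2958 and 1597 in STZ. STZ replicates 1 and 2 were above every control library, and STZ replicate 3 was below control replicates 2 and 3. Group means were 1628 ± 487 in control and 2297 ± 681 in STZ (SD, n = 3 each), which gave a log2 fold change of 0.50 ± 0.29 (SE) with an adjusted p of 0.469 by limma. Its 95% interval ran from −0.13 to 1.13.

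C1r, which activates C1s, lies 6770 bases from it at chr4:160712581-160729361. C1r had 1063, 1817 and 1129 normalized counts in the control libraries and 1445, 1234 and 1136 in the STZ libraries. Control replicate 2 was the highest of the 6, and the 3 STZ libraries lay inside the control range. The log2 fold change was −0.04 ± 0.23 (SE), with a 95% interval from −0.54 to 0.47 and an adjusted p of 0.975 by limma. The ratio of C1r to C1s, a check of the neighbouring pair within each library, was 0.998, 0.955 and 0.589 in control and 0.618, 0.417 and 0.712 in STZ. These ratios overlapped between the groups, with means of 0.847 ± 0.225 and 0.582 ± 0.15 (SD, n = 3 each).

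The 3 chains of C1q, the recognition protein of the classical pathway, are encoded by neighbouring genes that span 17656 bases of chromosome 5 in rn4. C1qb (chr5:155647525-155653074) had 15.4, 35.9 and 31.2 normalized counts in control and 24.1, 17.8 and 20.1 in STZ. C1qc (chr5:155656104-155659430) had 4.10, 25.2 and 24.5 in control and 13.9, 15.8 and 19.1 in STZ. C1qa (chr5:155662333-155665180) had 3.08, 7.63 and 7.79 in control and 3.71, 6.92 and 10.04 in STZ. Control replicate 1 was the lowest of the 6 libraries for each chain, with 15, 4 and 3 reads for C1qb, C1qc and C1qa. The olfactory background was 2.05 normalized counts in that library, against 6.33 and 10.02 in control replicates 2 and 3. In STZ replicates 1, 2 and 3 it was 1.86, 5.93 and 9.03, so it was lower still in STZ replicate 1. The part of background in the C1q values was not tested.

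With control replicate 1 included, the log2 fold changes were −0.32 ± 0.36 (SE) for C1qb, 0.19 ± 0.58 for C1qc and 0.14 ± 0.63 for C1qa, with adjusted p-values of 0.791, 0.945 and 0.967 by limma. Without that library they were −0.68, −0.59 and −0.23, so that 2 of the 3 chains changed sign and none passed the test. Macrophage markers were low in the same library.

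The promoters of C1qa and C1qb are shown because these genes lie close together and shared their lowest library, and that of C1r because it was among the members with the most reads. C1qc did not match. Promoter sequence, from 250 bases before to 50 after the start of the gene, was taken from RefSeq on the GRCr8 assembly, where 21 of the 31 members matched. C1qa is on the minus strand at chr5:154419884-154420183, C1qb on the minus strand at chr5:154407778-154408077 and C1r on the plus strand at chr4:159098763-159099062, and each is printed 5′ to 3′ along the gene. Capitals mark the single match to TTCNNNGAA, the spaced palindrome that STAT factors bind, which begins 90 bases before the start of C1qa.
C1qa: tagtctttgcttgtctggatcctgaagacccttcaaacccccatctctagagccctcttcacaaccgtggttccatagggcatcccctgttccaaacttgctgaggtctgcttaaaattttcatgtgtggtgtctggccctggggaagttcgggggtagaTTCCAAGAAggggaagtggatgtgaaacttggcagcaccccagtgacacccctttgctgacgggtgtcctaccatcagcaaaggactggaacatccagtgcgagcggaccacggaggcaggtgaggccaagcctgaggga
C1qb: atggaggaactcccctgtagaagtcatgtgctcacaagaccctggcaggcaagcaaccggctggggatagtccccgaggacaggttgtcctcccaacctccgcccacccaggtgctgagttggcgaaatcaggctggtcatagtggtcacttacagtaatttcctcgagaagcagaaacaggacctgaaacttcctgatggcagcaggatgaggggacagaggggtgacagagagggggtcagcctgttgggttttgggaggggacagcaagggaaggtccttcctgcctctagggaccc
C1r: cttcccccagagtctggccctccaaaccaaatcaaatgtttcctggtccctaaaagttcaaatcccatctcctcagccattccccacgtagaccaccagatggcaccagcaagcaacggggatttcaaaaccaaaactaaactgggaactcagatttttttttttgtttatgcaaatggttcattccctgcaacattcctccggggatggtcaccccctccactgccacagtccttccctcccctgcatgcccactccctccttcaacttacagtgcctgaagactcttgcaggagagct
The match in C1qa is not shared by C1qb or C1r.

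On either strand, TTCNNNGAA was present for 4 of the 21 members matched, C1qa, C4bpb, C8a and Vsig4, and in 8.87% of 33469 promoters of the same length. Members were counted by gene and the 33469 as single promoters, so the shares are not in like units. Of these 4 members, only C1qa was tested. GAAANNGAA, the core of the interferon-stimulated response element, was found for 0 of 21 members and in 9.71% of all promoters. GGGANTTTC, a form of the NF-kappaB site, was found in 0 of 21 and in 1.15% of all. A match is a description of letters in these windows and not a measured site.

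The lectin pathway proteases and C4 gave few reads. Masp2, which cleaves C4 and C2 once a lectin has bound, had 24.6, 23.6 and 45.6 normalized counts in control and 27.9, 26.7 and 29.1 in STZ. Control replicate 3 stood above all of the rest. The log2 fold change of −0.10 (adjusted p = 0.948 by limma) became 0.20 without it. Masp1 was untested, with 0 to 3.05 normalized counts in control and 1.86 to 7.91 in STZ. C4b, which encodes a form of C4, had 4.58 to 6.15 normalized counts in control and 1.86 to 6.02 in STZ, under the minimum mean. The C4 genes are near-identical copies and only uniquely mapped reads were counted, so the C4b values are uncertain.

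In the alternative pathway, factor B was the abundantly read member. Cfb encodes the protease that joins C3b to form the C3 convertase, and its feature spans 26576 bases of rn4 at chr20:4051222-4077797, 28366 bases from C4b. Cfb had 1261, 2096 and 1188 normalized counts in control and 977, 1343 and 975 in STZ. Control replicate 2 was the highest of the 6 and STZ replicates 1 and 3 were the lowest, while STZ replicate 2 lay above 2 of the 3 controls. Group means were 1515 ± 505 and 1098 ± 212 (SD, n = 3 each), which gave a log2 fold change of −0.43 ± 0.25 (SE) with a 95% interval from −0.97 to 0.11 and an adjusted p of 0.470 by limma. C2 neighbours Cfb in the RefSeq gene list and had no row of its own, and whether the Cfb feature also counted reads of C2 was not tested.

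Properdin, the stabilizer of the alternative convertase encoded by Cfp, had 6.15, 17.5 and 11.1 normalized counts in control and 10.2, 5.93 and 9.03 in STZ. The groups overlapped, with a log2 fold change of −0.35 ± 0.51 (SE) and an adjusted p of 0.860 by limma. Factor D, encoded by Cfd, cleaves factor B. Its feature had 0 reads in 4 libraries and at most 2 in the others, which is at the floor.

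Of the terminal components, only C8g and C8b reached the minimum mean. C8g encodes the gamma chain of C8 and lies at chr3:3671281-3674282. It had 40.0, 29.7 and 27.8 normalized counts in control and 30.6, 19.8 and 30.1 in STZ. STZ replicate 2 was the lowest and the other 2 STZ libraries lay inside the control range, with means of 32.5 ± 6.53 and 26.8 ± 6.12 (SD, n = 3 each). The log2 fold change was −0.28 ± 0.30 (SE) with an adjusted p of 0.775 by limma.

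C8b, the beta chain, had 2.05, 3.05 and 13.4 normalized counts in control and 0.929, 6.92 and 14.1 in STZ. Its values varied more within each group than between them, and replicate 3 was the highest library of both groups. The olfactory background was also highest in replicate 3 of both groups, and its part in the C8b values was not tested. The log2 fold change of 0.12 carried an SE of 0.91, the widest among the 14 members tested, and an adjusted p of 0.976 by limma.

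The remaining terminal members with a row were close to the floor. C5, whose larger fragment starts the pore, had 5.13 to 6.68 normalized counts in control and 0.989 to 5.57 in STZ, and the groups overlapped. C9, which forms most of the pore, had 0 to 3.34 in control and 2.79 to 7.03 in STZ, a two-sided exact permutation p of 0.2 where the smallest possible is 0.1. C8a had 1.03 to 6.86 in control and 0 to 4.02 in STZ, and C6 had at most 2.97 in any library. These 4 genes were under the minimum mean, and none was called when the minimum mean was lowered to 1.

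Among the regulators, Serping1 had the most reads. It encodes the C1 inhibitor, which inactivates C1r, C1s and the MASP proteases, and lies at chr3:67968807-67978102. Serping1 had 563, 1421 and 769 normalized counts in control and 566, 714 and 601 in STZ. Control replicate 2 stood above the other 5 libraries, and control replicate 1 was the lowest of the 6. Group means were 918 ± 448 and 627 ± 77.2 (SD, n = 3 each), which gave a log2 fold change of −0.45 ± 0.29 (SE) with a 95% interval from −1.09 to 0.20 and an adjusted p of 0.555 by limma.

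The size of the Serping1 difference depended on single control libraries. It was −0.08 without control replicate 2 and −0.74 without control replicate 1. The ratio of Cfb to Serping1 was 2.24, 1.48 and 1.54 in control and 1.72, 1.88 and 1.62 in STZ, and the STZ ratios lay inside the control range.

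Cd55, the decay-accelerating factor that takes apart convertases on cell surfaces, lies at chr13:43320126-43348298. It had 9.23, 19.1 and 18.9 normalized counts in control and 5.57, 7.91 and 15.1 in STZ. STZ replicates 1 and 2 were below every control library, and STZ replicate 3 was above control replicate 1. Its log2 fold change of −0.71 ± 0.49 (SE) was the lowest of the 14 members, with a 95% interval from −1.78 to 0.37 and an adjusted p of 0.580 by limma. The libraries held 51 reads of Cd55 in control and 29 in STZ.

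C4bpa and C4bpb encode the chains of the C4b-binding protein, a soluble cofactor that inactivates C4b. C4bpa had 1.03, 5.34 and 12.2 normalized counts in control and 2.79, 4.95 and 5.02 in STZ, with a log2 fold change of −0.11 ± 0.83 (SE) and an adjusted p of 0.977 by limma. C4bpb had 2.05, 2.29 and 3.34 in control and 1.86, 0.989 and 1.004 in STZ. It was the only member whose groups did not overlap, but these values stand for 2, 3 and 3 reads against 2, 1 and 1, all at the floor. A feature named MCP_RAT, the protein database name for rat membrane cofactor protein (Cd46), was picked after its values were seen, and had 48.2, 33.6 and 54.5 in control and 27.9, 34.6 and 48.2 in STZ (adjusted p = 0.738 by limma). Also looked up outside the member names were the features CO5_RAT (0 to 2.23 normalized counts) and E9PSV0_RAT (0 to 6.86), both under the minimum mean.

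The receptor members gave little signal. C3ar1, the receptor for the C3a fragment on myeloid cells, had 6.15, 9.15 and 11.1 normalized counts in control and 8.36, 3.96 and 9.03 in STZ. Control and STZ libraries overlapped, with a log2 fold change of −0.31 ± 0.54 (SE) and an adjusted p of 0.890 by limma. Vsig4, the receptor for C3 fragments on resident macrophages, had 0 reads in 5 libraries and 2 in STZ replicate 2. A count of 0 allows up to 2.29 to 3.34 normalized counts in the control libraries. Cr2, the B-cell receptor for C3d, had 0 to 2.29 normalized counts.

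**Figure D2:**
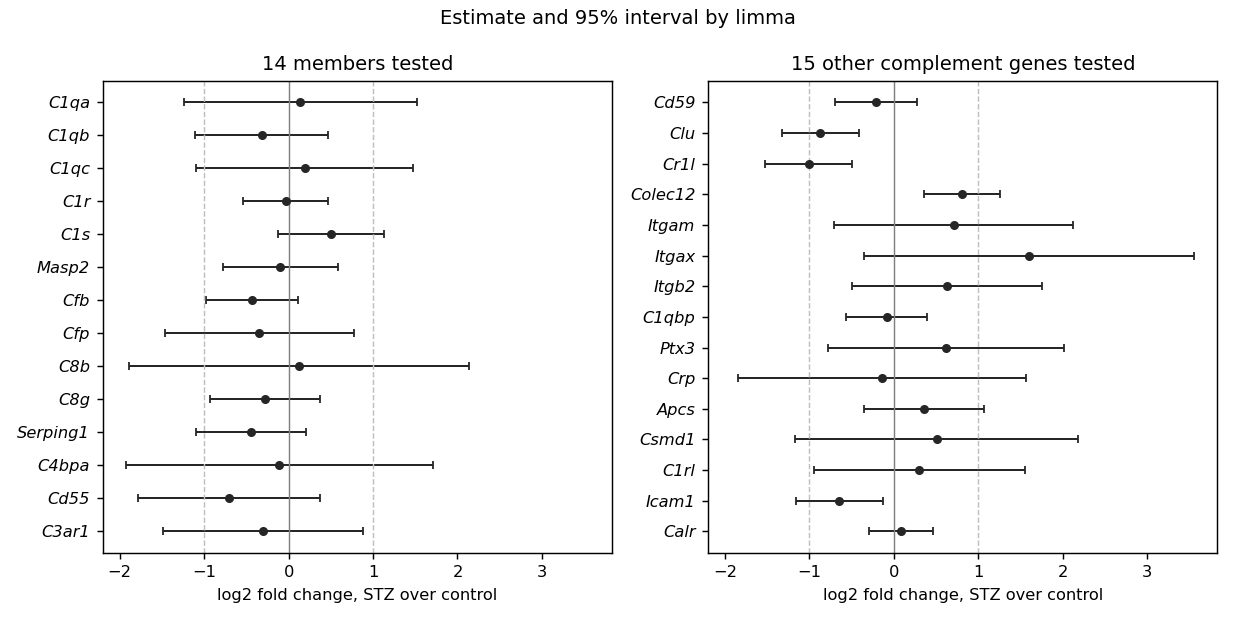
Log2 fold change of STZ over control with its 95% interval by limma, for the 14 complement members tested (left) and for 15 of the 16 other complement genes tested (right), with dashed lines at 1 log2 unit either side of 0. Every member's interval crosses 0. Among the others, those of Clu, Cr1l, Colec12 and Icam1 do not.

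Among the members tested, control replicates 1 and 2 were often the lowest and the highest library. Control replicate 2 was the highest of the 6 libraries in 7 of the 14 members tested, among them C1r, Cfb and Serping1. Control replicate 1 was the lowest of the 6 in 7 of 14, of which C1qb, C1qc, C1r and Serping1 were also highest in control replicate 2, and the lowest control in 11 of 14. Without control replicate 1 the median log2 fold change of the 14 was −0.53, and without control replicate 2 it was −0.08. The smallest adjusted p among the members was then 0.254 and 0.553 by limma, respectively. The share of all features tested that were lowest or highest in these libraries was not computed. Whether the order is particular to the members, or to the marker lists below, is therefore not known. Control replicate 1 had 18268 features with a read, against 20881 and 20453 in control replicates 2 and 3. The STZ libraries had 18212, 19885 and 21064, and STZ replicate 1 was the lowest of the 6 in 2 of 14 members.

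Macrophage markers showed the same low library. Of 15 listed markers 11 had a row and all 11 were tested, and their summed normalized counts were 1124, 2941 and 2413 in control and 1929, 1843 and 2768 in STZ. Control replicate 1 was the lowest of the 6 in 7 of 11 and the lowest control in 10 of 11. Lyz2, the most abundantly read of them, had 518 normalized counts in control replicate 1 and 908 to 1757 in the other 5 libraries. Between the groups, 0 of 11 were called by limma and 1 had an unadjusted p under 0.05, with a median log2 fold change of 0.15. No marker with a row was at 0 in any library, and the part of macrophage content in the C1q values was not tested.

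Interferon-response genes stood highest in control replicate 2. Interferon is a known inducer of factor B, C1r, C1s and the C1 inhibitor in many cells. Of 24 listed genes 19 were tested, and control replicate 2 was the highest of the 6 libraries in 14. Their summed normalized counts were 6415, 15926 and 8775 in control and 4225, 7607 and 6087 in STZ. In STZ 4 of 19 fell, Ifit3, Ifit2, Cxcl10 and Mx2, and 0 rose, with a median log2 fold change of −0.69. Ifit3, an antiviral effector, had 315, 681 and 362 normalized counts in control and 39.0, 107 and 85.3 in STZ, an adjusted p of 0.00704 by limma. The part of this list in the Cfb and Serping1 values was not tested.

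**Figure D3:**
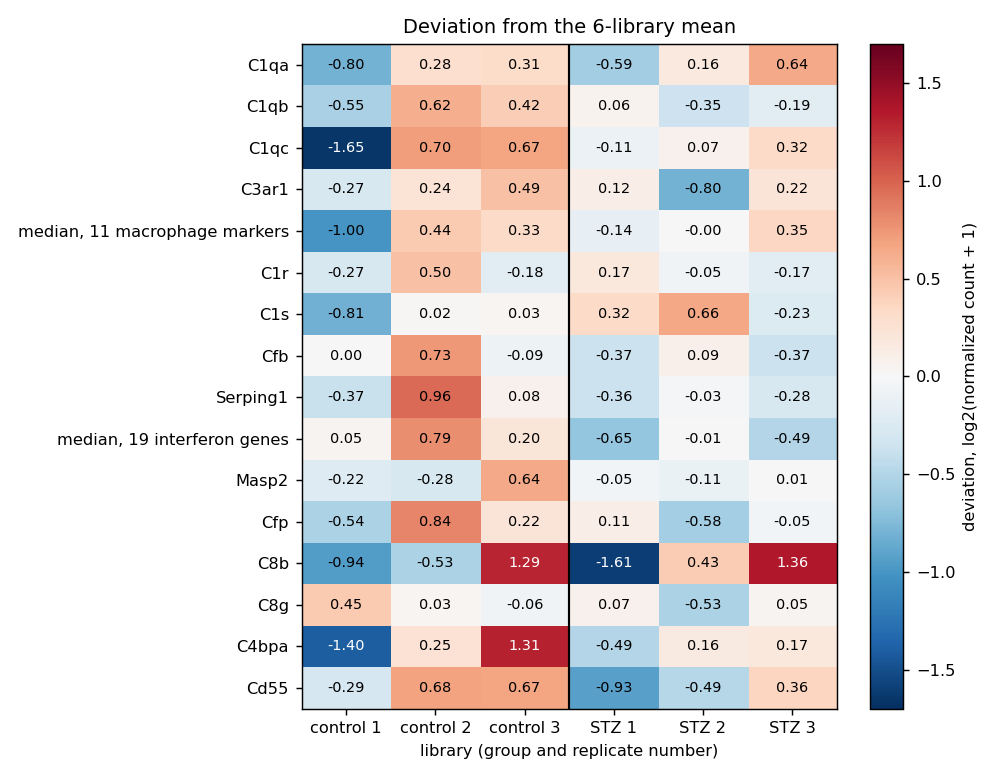
Deviation of each library from the 6-library mean, in log2(normalized count + 1), for the 14 complement members tested and for the medians of 11 macrophage markers and 19 interferon-response genes, with red above and blue below the mean. The C1q chains and the macrophage median are lowest in control 1, and Cfb, Serping1 and the interferon median are highest in control 2.

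Of 8 liver markers 2 were tested, Alb and Serpina1, and 0 were called by limma (1 had an unadjusted p under 0.05). Albumin (Alb), the defining liver transcript, had 3.71 to 17.8 normalized counts. Serpina1, which encodes the protease inhibitor alpha-1-antitrypsin, had 10.3, 83.9 and 16.7 in control and 100.3, 119 and 213 in STZ. Every STZ library lay above every control library, with a log2 fold change of 2.42 ± 0.60 (SE) and an adjusted p of 0.0710 by limma. The 5 liver markers with a row summed to 19.5, 110 and 49.0 in control and 105, 137 and 241 in STZ. The liver secretes the plasma pool of C3, C5, C6, C8 and C9, and the rows of C5, C6, C8a and C9 were near the floor. The other C8 chains were higher in some or all libraries, with 19.8 to 40.0 normalized counts for C8g and 0.929 to 14.1 for C8b. The part of liver markers in the members' values was not tested.

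The rest of the pathway was taken from a list of 34 other complement genes, of which 25 had a row and 16 were tested. By limma 0 of 16 passed the adjusted threshold, beside 2.1% of all features tested, and 4 had an unadjusted p under 0.05. The groups did not overlap in 4 of 16, against 20.3% of all features tested, with 1 higher and 3 lower in STZ. EdgeR called 1 and DESeq2 called 2 of them. The 4 with the highest means were Clu, Cr1l, Calr and Cd59.

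Cr1l encodes the rodent regulator Crry, a membrane protein that takes apart convertases and acts as a cofactor for C3b and C4b cleavage. It lies at chr13:111010301-111057427, 26066 bases from Cr2 and 6893 bases from the MCP_RAT feature. Cr1l had 4914, 4404 and 2910 normalized counts in control and 2241, 1955 and 1757 in STZ, so every STZ library lay below every control library. Group means were 4076 ± 1042 and 1985 ± 244 (SD, n = 3 each), which gave a log2 fold change of −1.01 ± 0.23 (SE) with a 95% interval from −1.52 to −0.50. Its adjusted p of 0.0530 by limma missed the threshold, and over 18 alternatives it ran from 0.000223 to 0.229, under 0.05 in 9. Its promoter is shown because it had the lowest log2 fold change of the 30 complement genes tested. It lies on the minus strand of GRCr8 at chr13:109188820-109189119, and TTCNNNGAA, GAAANNGAA and GGGANTTTC are not among its letters.
Cr1l: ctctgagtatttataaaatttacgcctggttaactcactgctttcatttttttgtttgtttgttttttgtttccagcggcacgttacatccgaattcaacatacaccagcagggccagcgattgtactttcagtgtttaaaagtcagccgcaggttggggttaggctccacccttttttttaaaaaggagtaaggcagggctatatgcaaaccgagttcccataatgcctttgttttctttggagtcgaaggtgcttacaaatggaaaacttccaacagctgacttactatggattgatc

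Clu encodes clusterin, a secreted chaperone that binds the terminal complex in solution, and lies at chr15:45392613-45405323. It had 4111, 3918 and 4594 normalized counts in control and 2029, 2856 and 2074 in STZ. The groups did not overlap, with means of 4207 ± 348 and 2320 ± 465 (SD, n = 3 each) and a log2 fold change of −0.87 ± 0.21 (SE). The adjusted p was 0.0590 by limma, from 0.000758 to 0.212 over 18 alternatives and under 0.05 in 5.

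The groups overlapped for Cd59 and Calr. Cd59, the membrane inhibitor of the pore, had 1793, 1040 and 1247 normalized counts in control and 1226, 1146 and 1059 in STZ, an adjusted p of 0.760 by limma. Calr, calreticulin, a partner of C1q on cell surfaces, had means of 1332 ± 81.2 and 1415 ± 94.8 (SD, n = 3 each) with an adjusted p of 0.908 by limma.

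Colec12 and Icam1 were picked because their groups did not overlap. Colec12, a membrane collectin, had 63.6, 61.8 and 79.0 normalized counts in control and 126, 113 and 118 in STZ. Its log2 fold change was 0.80 ± 0.20 (SE) with an adjusted p of 0.0732 by limma. Icam1, an adhesion molecule that binds leukocyte integrins, had 169, 201 and 118 in control and 95.6, 92.0 and 117 in STZ. Its log2 fold change was −0.65, with an adjusted p of 0.212 by limma, and the nearest control and STZ libraries were less than 1 normalized count apart. Some endothelial and tubular markers differed between the groups. By limma 2 of 7 endothelial markers fell (Plvap and Emcn) and 1 rose (Vwf), where 2.1% of all features tested were called. Groups did not overlap in 6 of 7, with 4 lower and 2 higher in STZ, against 20.3% of all features tested. Pecam1 overlapped, with means of 780 in control and 774 in STZ. Their sum was 7096 to 9194 in control and 3946 to 4337 in STZ, of which Emcn alone was 4827 to 6520 and 2003 to 2246. Of 6 thin limb, thick limb and proximal tubule markers 2 fell (Umod and Egf), with sums of 2661 to 3347 and 1794 to 2600. The part of these cell types in the Cr1l, Clu, Colec12 and Icam1 values was not tested.

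**Figure D4:**
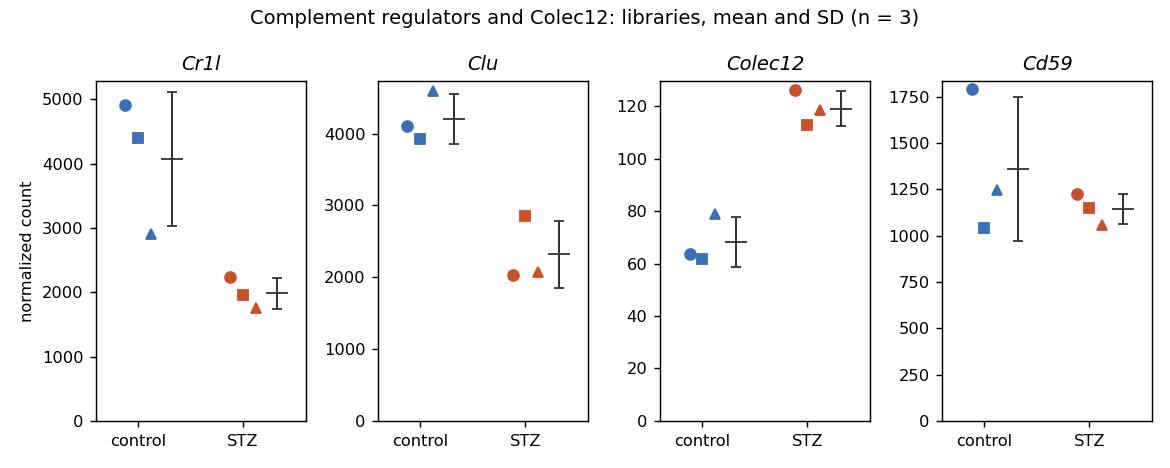
Normalized counts (linear axes from 0) of Cr1l, Clu, Colec12 and Cd59 in the 3 control (blue) and 3 STZ (orange) libraries, with the marker shape giving replicates 1 (circle), 2 (square) and 3 (triangle) and the black marks the mean and SD. The groups are separate for Cr1l, Clu and Colec12 and overlap for Cd59.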

How the data were processed

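RNA from the IM tip of 3 control and 3 STZ rats had been made into cDNA with a PCR-based kit and sequenced on a HiSeq2000. Per the submitters' processing notes and methods, the authors used STAR 2.3.1t with the rn4 genome and DESeq 1.16.0, and counted uniquely mapped reads. Which program did the counting, and whether it used strand, is not given in the sources used here. The deposited signal is a normalized count, the reads of a feature divided by the size factor of its library. Names joined by a comma (2720) or a plus (857) were not taken as members.

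Whole reads were recovered for 100.0% of values in each library, within a tolerance of 1e-06 of a whole number. Features with a mean of at least 5 were tested with limma 3.58.1 (R 4.3.3) after log2 transformation with a pseudocount of 1, with an intensity trend and Benjamini-Hochberg adjustment over all 13486, at 0.05. Fold changes on this scale understate the change of low genes. For untested members an exact two-sided permutation test was used (smallest p 0.1). EdgeR 4.0.16 and DESeq2 1.42.0 on the recovered reads, pseudocounts of 0.5 and 5, other filters and scalings, other limma settings, a replicate block and each library left out were alternatives. On simulated data, in which 200 of 13486 features differed by a log2 of 2 between STZ and control, limma recovered 77.0%, edgeR 78.0% and DESeq2 76.5%. Python 3.11.15, pandas 2.3.3, scipy 1.17.1 and matplotlib 3.10.9 made the tables and plots.

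The members, the other gene lists and the tests were chosen with earlier results of these data known. By rule, members that passed, members whose groups did not overlap and the highest mean of each role were given per library, and of other lists those that passed and up to 4 with the highest means. C1r, the C1q chains, Masp2, Cfp, C8b, Cd55, C4bpa, Colec12, Icam1 and MCP_RAT were described per library outside that rule. Markers of other leukocytes (0 of 9 called), fibroblasts (1 of 8, higher), collecting duct (0 of 8) and urothelium (2 of 5, higher) were also listed. The values of 1 of the other complement genes are not reported here.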

Additional observations from a re-analysis of the deposited data

How the results depend on the processing

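The number of complement members called stayed at 0 in both directions in every alternative run. The number of all features called, 283, was 522 with quantile normalization, 31 without the intensity trend, 597 with DESeq2, 561 with the replicate block and 88 to 352 with a library left out. It was 101 without control replicate 2, 182 without control replicate 1, 141, 88 and 163 without STZ replicates 1, 2 and 3. Features called higher and lower were 158 and 125, but 188 and 201 with equal library totals. Of the other complement genes, 0 in the reported test, 3 passed at a minimum mean of 20, 2 with equal library totals, quantile normalization, DESeq2 or the replicate block, 1 with no filter, robust moderation or edgeR, and 0 to 1 with a library left out.

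Of 245 fold changes of members over the alternatives, 230 kept their sign and, where an adjusted p was given, their side of the threshold. The other 15 changed sign, in 7 members. C1qc was −0.15 by edgeR and by DESeq2, and with a library left out −0.59 (control replicate 1) to 0.59. With a library left out, C1qa was −0.23 (control replicate 1) to 0.47 and −0.15 without STZ replicate 3. C8b was −0.52 (STZ replicate 3) to 0.96, and also below 0 without control replicates 1 and 2 or STZ replicate 2. C1r was −0.18 to 0.21 (control replicate 2) and 0.04 without STZ replicate 3. Masp2 was −0.26 to 0.20 (control replicate 3). C4bpa was −0.84 to 0.52 (control replicate 3) and 0.11 without STZ replicate 1. C3ar1 was −0.52 to 0.016 (STZ replicate 2), and Cd59, no member, was −0.39 to 0.0035 (control replicate 1). The cause was not tested.

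The control and STZ rats share the replicate numbers 1, 2 and 3 in the labels. Deviations of same-numbered libraries from their group means correlated with r = 0.395, −0.0612 and 0.323 across 9315 features, which are not independent replicates. For control replicates 1 and 3 the same-numbered STZ library had the highest r, while control replicate 2 correlated best with STZ replicate 1 (r = 0.107). The olfactory background was also lowest in replicate 1 and highest in replicate 3 of both groups. What the shared number stands for is not given in the labels and was not tested. With the replicate block, 561 features and 0 members were called, and Cfb and Serping1 had an unadjusted p under 0.05, with a smallest adjusted p among the members of 0.160 by limma. An unadjusted p under 0.05 by limma also arose with a library left out. These were Serping1 without control replicate 1 (0.0190), Cfb without control replicate 3 (0.0425) and C1s without STZ replicate 3 (0.0287). Among members with few reads the standard errors reached 0.91 on the log2 scale (C8b), against 0.23 for C1r. That of C8b was 0.51 with the replicate block. The part of depth in these errors was not tested.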
